A study of Mus musculus with 12 samples.

Results

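The *Egr* and *Nr4a* genes are a set of 7 transcription factor genes, *Egr1*, *Egr2*, *Egr3*, *Egr4*, *Nr4a1*, *Nr4a2* and *Nr4a3*, chosen by name from the 36047 genes of an RNAseq study of mouse cortex. They were selected on measured values, since their levels in 4-month WT and *Gde2*KO libraries were already known, so that the 4-month genotype values below are a description with no test. All 7 were above the limit on low values in each comparison. The study compared WT mice with mice lacking *Gde2* throughout the body (*Gde2*KO), with 3 libraries of each genotype at 4 months and 3 of each at 19 months, 12 libraries of polyadenylated RNA from whole cortical tissue. GDE2, encoded by *Gdpd5*, is a membrane enzyme that cleaves the anchors of glycosylphosphatidylinositol-linked surface proteins. The 4-month libraries were made to look for pathways that begin changes in TDP-43 trafficking, and the 19-month libraries to look for splicing defects. Males and females were used in the study, and the labels do not give the sex of each animal. Levels are normalized counts, which are Kallisto estimated counts divided by a size factor for each library and summed over the transcripts of a gene. Because whole tissue was sequenced, fewer cells of a type and less RNA per cell cannot be told apart.

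Immediate early genes are transcribed within minutes of a stimulus without new protein synthesis, and in cortex they follow neuronal firing, with calcium and MAP kinase signals acting through SRF and its partners at CArG boxes and through CREB at cyclic AMP response elements (CREs). The EGR proteins are zinc finger factors that bind GC-rich EGR sites and are held in check by the NAB co-repressors. The NR4A proteins are orphan nuclear receptors that bind the NBRE sequence alone or act with retinoid X receptors. *Egr1* (Zif268) is widely used as a marker of active neurons, and *Nr4a2* (Nurr1) is also a lineage factor of dopamine neurons.

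The sequence just upstream of the start site is shown because the start sites of these genes are where SRF and CREB are known to act. The set of RefSeq (GRCm38.p6) upstream regions used here held 5 of the 7 genes, with no entry for *Egr1* or *Egr3*. Bases are 5′ to 3′ on the strand of the gene. Capitals mark matches on either strand to the CArG box, the CRE core TGACG and the EGR site GCGNGGGCG.

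*Nr4a1*, chr15:101266596-101266845, + strand: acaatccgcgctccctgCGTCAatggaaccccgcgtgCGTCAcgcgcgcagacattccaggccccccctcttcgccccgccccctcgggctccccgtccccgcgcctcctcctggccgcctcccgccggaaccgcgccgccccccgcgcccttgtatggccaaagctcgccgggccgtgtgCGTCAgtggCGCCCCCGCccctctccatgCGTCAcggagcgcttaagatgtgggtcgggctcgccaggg

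*Nr4a2*, chr2:57124004-57124253, − strand: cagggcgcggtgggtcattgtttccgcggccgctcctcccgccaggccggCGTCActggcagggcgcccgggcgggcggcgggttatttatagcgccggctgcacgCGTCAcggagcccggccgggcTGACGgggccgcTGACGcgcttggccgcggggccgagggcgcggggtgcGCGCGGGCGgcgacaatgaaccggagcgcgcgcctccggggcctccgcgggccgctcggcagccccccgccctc

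*Nr4a3*, chr4:48045055-48045152, + strand: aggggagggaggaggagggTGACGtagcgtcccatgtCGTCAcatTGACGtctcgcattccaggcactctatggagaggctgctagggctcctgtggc

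*Egr2*, chr10:67537619-67537868, + strand: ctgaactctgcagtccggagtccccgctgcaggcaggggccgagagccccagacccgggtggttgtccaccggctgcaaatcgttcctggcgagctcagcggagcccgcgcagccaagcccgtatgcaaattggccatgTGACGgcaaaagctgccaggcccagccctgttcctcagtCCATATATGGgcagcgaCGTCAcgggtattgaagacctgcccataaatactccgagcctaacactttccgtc

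*Egr4*, chr6:85513590-85513839, − strand: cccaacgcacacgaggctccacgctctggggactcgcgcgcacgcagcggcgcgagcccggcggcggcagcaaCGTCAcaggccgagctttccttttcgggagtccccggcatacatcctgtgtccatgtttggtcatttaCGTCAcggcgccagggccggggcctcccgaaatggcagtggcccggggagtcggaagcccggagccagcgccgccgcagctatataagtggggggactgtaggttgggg

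A CRE core was present in the 250 upstream bases of all 5 genes, against 17.8% of the 32851 RefSeq upstream regions of the same length. *Nr4a1*, *Nr4a2* and *Nr4a3* each held 4 CRE cores and *Egr2* and *Egr4* each held 2, and 1 of those of *Nr4a3* lies in an annotated exon that is not printed. A CArG box was found for *Egr2* alone of the 5 (1.47% of all regions), and an EGR site for *Nr4a1* and *Nr4a2* (4.7% of all regions). The full CRE TGACGTCA, which contains the core and occurs in 1.55% of all regions, was found for 0 of the 5, as were the NBRE AAAGGTCA (1.34%) and the AP-1 site TGANTCA (6.75%). The region shown for *Nr4a1* ends at the start of its most abundant transcript, ENSMUST00000023779.7. The regions of *Egr2* and *Egr4* likewise end at the starts of ENSMUST00000048289.13 and ENSMUST00000095759.4. That of *Nr4a2* belongs to ENSMUST00000112629.7, not to the more abundant ENSMUST00000028166.8, and that of *Nr4a3* ends at the GENCODE start of the gene, 152 exonic bases before the RefSeq start site.

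Several libraries stood apart before genotype was considered. The 4-month libraries held 46434270 to 59728494 estimated reads. At 19 months, WT replicate A held 6734475, *Gde2*KO replicate A 3707928, and the others 36915259 to 44604721. *Gdpd5* was lower in *Gde2*KO than in every WT library of the same age, at 403 to 585 against 684 to 1199 normalized counts at 4 months and 441 to 560 against 952 to 1129 at 19 months (limma log2 fold change −0.85, adjusted p = 0.463 at 4 months, and −1.11, adjusted p = 0.0111 at 19 months). The neuron markers *Rbfox3*, *Snap25*, *Syt1*, *Slc17a7* and *Gad1* summed to 164296 to 239685 normalized counts over the 12 libraries. The 7 hippocampus markers summed to 12748 and 11895 in 4-month WT replicates 1 and 2 and to 1035 to 2323 in the other 10 libraries. At 19 months these sums were 1035 to 1292 in WT and 1569 to 2323 in *Gde2*KO libraries, which did not overlap. There 1 of the 7, *Fibcd1*, passed as higher in *Gde2*KO (log2 fold change 1.44, limma adjusted p = 0.0111). The 9 striatum markers summed to 8171 and 6255 in 4-month WT replicates 1 and 2 against 35510 to 94784 in the other 4-month libraries. At 19 months they summed to 9133 to 11892 in WT and 11131 to 25087 in *Gde2*KO libraries. The 4 Y-linked genes summed to 251 to 370 in the 6 libraries of 4 months and to 371 in 19-month *Gde2*KO replicate A, against 4224 to 4797 in the other 19-month libraries. Age therefore cannot be told apart from sex, depth or the tissue that was dissected. Nor can genotype be told apart from dissected tissue at 4 months where WT replicates 1 and 2 are used, or at 19 months.

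**Figure D1:**
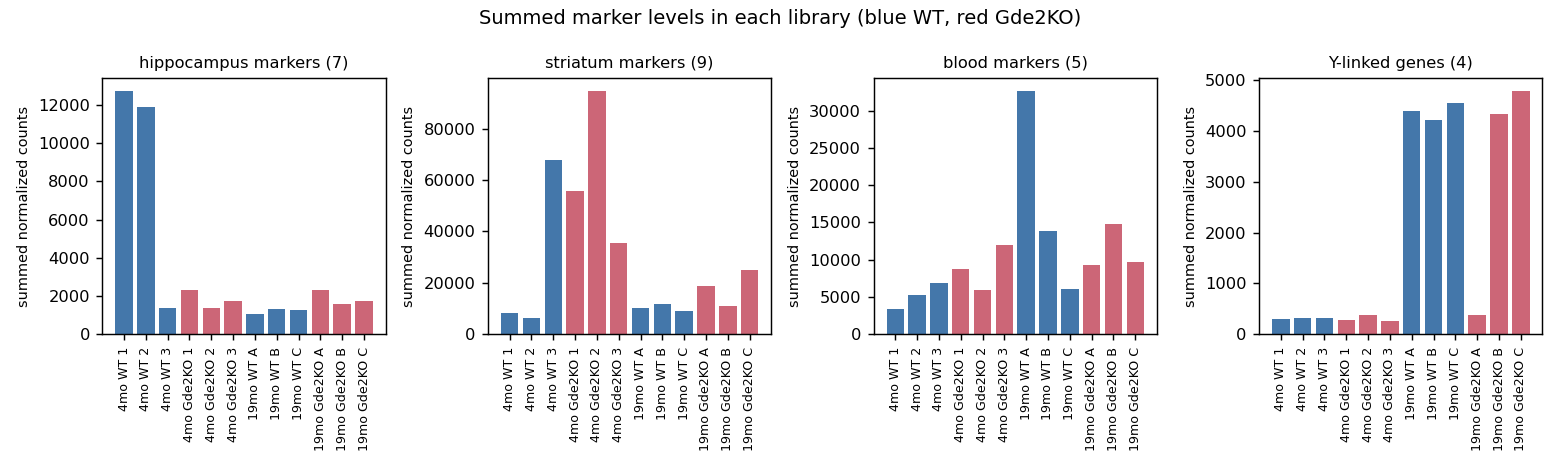
Summed normalized counts of hippocampus, striatum and blood markers and of Y-linked genes in each of the 12 libraries (blue WT, red *Gde2*KO). 4-month WT replicates 1 and 2 have hippocampus sums of 12748 and 11895, and Y-linked sums of 4224 or more occur in 5 of the 6 libraries of 19 months.

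Per length, *Egr1* had the highest mean level of the 7 genes in all 4 groups and *Egr2* the lowest, although in 4-month WT replicates 1 and 2 *Egr1* (35.4 and 47.3 TPM) was below *Egr3*, *Nr4a1* and *Nr4a2*. In 4-month *Gde2*KO cortices the mean levels in normalized TPM (Kallisto's abundance per transcript length, divided by the library's size factor) were 210 ± 29.1 for *Egr1*, 172 ± 18.1 for *Nr4a1*, 121 ± 16.6 for *Egr3*, 58.7 ± 7.95 for *Egr4*, 44.2 ± 7.40 for *Nr4a2*, 15.3 ± 3.31 for *Nr4a3* and 6.5 ± 0.86 for *Egr2* (SD, n = 3). Of these neighbours only *Egr4* and *Nr4a2* overlapped. In 4-month WT cortices the order was *Egr1*, *Egr3*, *Nr4a1*, *Nr4a2*, *Egr4*, *Nr4a3* and *Egr2*, and each neighbouring pair overlapped except *Nr4a3* and *Egr2*. In that group *Egr1* had 76.4 ± 61.1 TPM and *Nr4a1* 66.4 ± 23.1 TPM (SD, n = 3). At 19 months, *Egr1* had 202 ± 66.9 TPM in WT and 206 ± 4.90 TPM in *Gde2*KO, and *Nr4a1* had 130 ± 50.6 and 121 ± 34.2 TPM (SD, n = 3). In *Gde2*KO at 19 months *Egr3* and *Nr4a1* overlapped, as did *Nr4a2* and *Egr4*. In WT at 19 months *Egr1*, *Nr4a1* and *Egr3* overlapped in turn, as did *Egr4* and *Nr4a2*. These orders rest in part on short transcripts with few reads. ENSMUST00000128776.1 held 30.8% to 38% of *Nr4a2* by TPM and 0.665% to 0.911% by normalized counts in the 4 groups. ENSMUST00000230814.1 held 17.9% to 23.9% of *Nr4a1* by TPM and 1.38% to 2.05% by normalized counts.

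At 4 months, *Nr4a1* and the 4 *Egr* genes were at higher levels in each *Gde2*KO library than in each WT library, and *Nr4a2* and *Nr4a3* were not. *Nr4a1* (Nur77; ENSMUSG00000023034.7, chromosome 15, 101254269 to 101274795, + strand) is the member of the nuclear receptor family that responds most widely to stimuli. It had 1485, 2044 and 2593 normalized counts in WT replicates 1, 2 and 3 and 6696, 5623 and 5789 in *Gde2*KO replicates 1, 2 and 3. The lowest *Gde2*KO library was 2.17 times the highest WT library, and the spread within *Gde2*KO, highest over lowest, was 1.19. The log2 fold change was 1.60, or 3.03-fold.

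*Egr1* (ENSMUSG00000038418.7, chromosome 18, 34859823 to 34864984, + strand) had 2064, 2808 and 8590 normalized counts in the WT libraries and 14712, 12102 and 11407 in the *Gde2*KO libraries, a log2 fold change of 1.78. WT replicate 3 was 4.16 times WT replicate 1, while the *Gde2*KO libraries spanned 1.29-fold. *Egr2* (Krox20; ENSMUSG00000037868.15, chromosome 10, 67535475 to 67542188, + strand), which is also a master factor of myelinating Schwann cells, had 16.9, 32.4 and 149 normalized counts in WT and 397, 310 and 323 in *Gde2*KO libraries. Its log2 fold change of 2.96 was the largest of the 7, and its WT spread, 8.78-fold, was also the widest. The lowest of these levels rested on 23.5 estimated reads.

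*Egr3* (ENSMUSG00000033730.4, chromosome 14, 70077203 to 70082614, + strand), needed for muscle spindle formation, had 2327, 3162 and 5266 normalized counts in WT and 7023, 6568 and 6302 in *Gde2*KO libraries, a log2 fold change of 0.97. By normalized TPM its groups overlapped, with 107 in WT replicate 3 and 101 in *Gde2*KO replicate 3. *Egr4* (ENSMUSG00000071341.4, chromosome 6, 85511121 to 85513589, − strand) had 487, 832 and 1332 normalized counts in WT and 2459, 1798 and 2317 in *Gde2*KO libraries, a log2 fold change of 1.42. For each of these 4 *Egr* genes WT replicate 1 was the lowest and WT replicate 3 the highest of the WT libraries.

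*Nr4a2* (ENSMUSG00000026826.13, chromosome 2, 57106830 to 57124003, − strand) had 1578, 2700 and 1290 normalized counts in WT and 2381, 1342 and 1870 in *Gde2*KO libraries, a log2 fold change of 0.04. *Nr4a3* (NOR1; ENSMUSG00000028341.9, chromosome 4, 48045153 to 48086447, + strand) had 2487, 3104 and 1022 normalized counts in WT and 1879, 1169 and 1565 in *Gde2*KO libraries, a log2 fold change of −0.40. Both had their highest 4-month value in WT replicate 2, and *Nr4a3* was higher in WT replicates 1 and 2, the libraries with high hippocampus markers, than in any other library of the series. Over the 7 genes, 5 had every *Gde2*KO library above every WT library, where 11.1% of the 19035 genes tested had this order. The median log2 fold change of the 7 was 1.42, beside 0.11 over all genes. These values use the contrast by which the genes were selected.

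**Figure D2:**
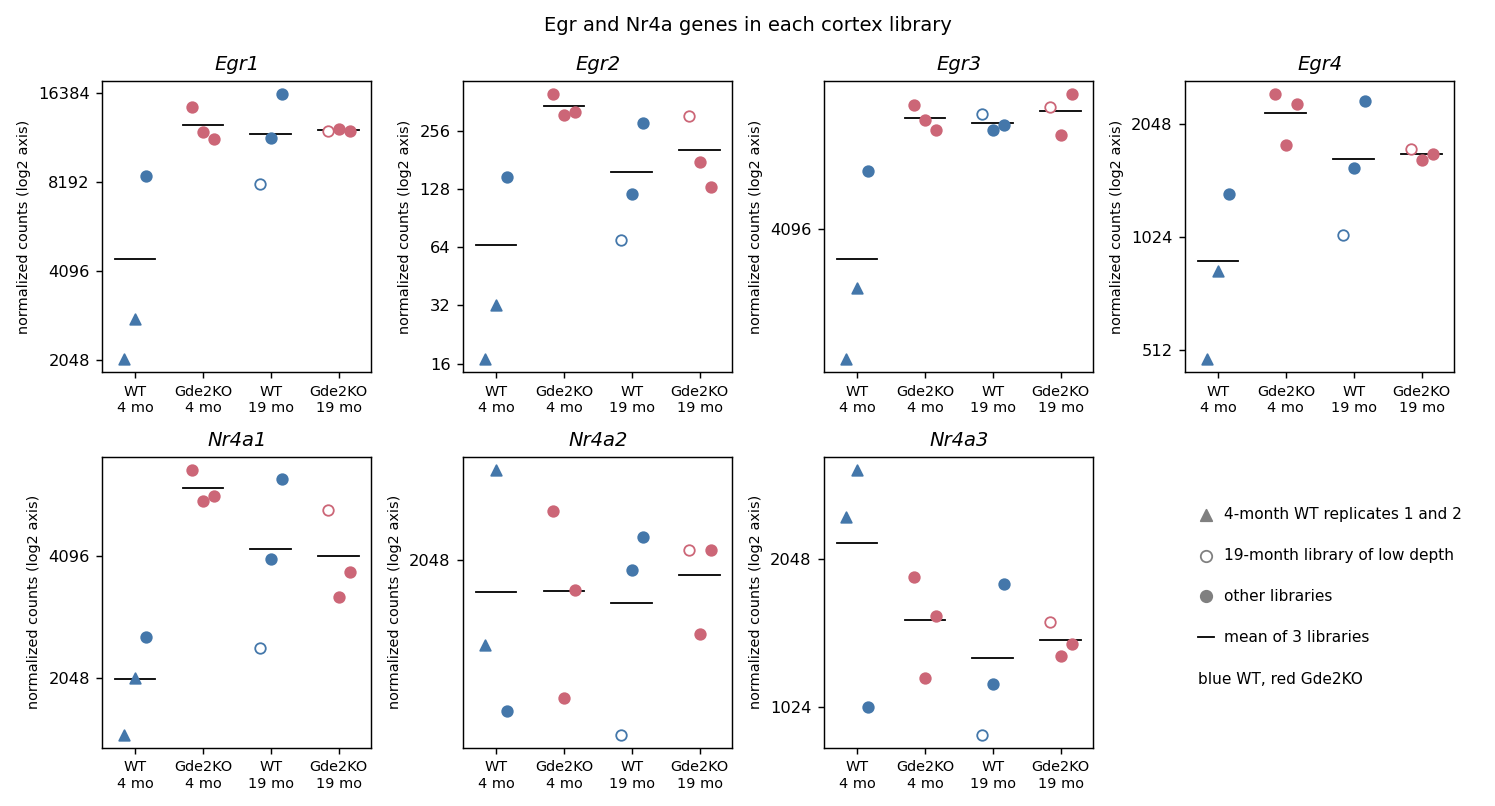
Normalized counts (log2 axis) of the 7 genes in each library, by group, with the mean of 3 libraries as a line. Triangles are 4-month WT replicates 1 and 2 and open circles the 19-month libraries of low depth. *Nr4a1* lies between 1485 and 2593 in 4-month WT and between 5623 and 6696 in 4-month *Gde2*KO libraries, and the 19-month groups overlap for all 7 genes.

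The 4-month differences of the 4 *Egr* genes and *Nr4a1* were smaller, and those of *Nr4a2* and *Nr4a3* larger in size, against WT replicate 3, the WT library whose marker sums were near those of the *Gde2*KO libraries. Against it alone the log2 difference was 1.21 for *Nr4a1*, 1.20 for *Egr2*, 0.71 for *Egr4*, 0.56 for *Egr1* and 0.33 for *Egr3*. For *Nr4a3* the sign turned, to 0.56, and *Nr4a2* gave 0.49. All 7 genes were then higher in every *Gde2*KO library than in this single WT library, as were 29.1% of all genes tested. The lowest *Gde2*KO library exceeded WT replicate 3 by 2.17-fold for *Nr4a1*, 2.09-fold for *Egr2*, 1.35-fold for *Egr4*, 1.33-fold for *Egr1*, 1.20-fold for *Egr3*, 1.14-fold for *Nr4a3* and 1.04-fold for *Nr4a2*. With 1 WT library this difference has no replicate check. *Nr4a1* and *Egr2* therefore had differences above 1 on the log2 scale both with all WT libraries and with WT replicate 3 alone, and those of *Egr1*, *Egr3* and *Egr4* were below 1 with it alone.

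In 19-month cortices, which come from other animals, 0 of the 7 genes passed the limits in limma, 0 had an unadjusted p under 0.05, and the groups overlapped for each of them. Of the 18583 genes tested, 0.0969% passed, 1285 had an unadjusted p under 0.05 in limma, and 14.2% had groups that did not overlap in either direction. *Nr4a1* had 2427, 4022 and 6346 normalized counts in WT replicates A, B and C and 5316, 3249 and 3740 in *Gde2*KO replicates A, B and C. Its log2 fold change was 0.02 (95% interval −0.70 to 0.74, limma adjusted p = 0.990).

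*Egr1* had 8037, 11502 and 16190 normalized counts in 19-month WT and 12183, 12388 and 12126 in *Gde2*KO libraries, so that the *Gde2*KO libraries fell within a narrow band inside the WT range (log2 fold change 0.10, 95% interval −0.37 to 0.56, limma adjusted p = 0.903). *Egr2* had 69.9, 120 and 283 in WT and 307, 177 and 131 in *Gde2*KO libraries, a log2 fold change of 0.52 with a wide 95% interval of −0.60 to 1.65 (limma adjusted p = 0.776). In the replicates A of low depth *Egr2* rested on 15 estimated reads in WT and 37 in *Gde2*KO. *Egr3* was the most even gene, at 6751, 6306 and 6432 in WT and 6966, 6170 and 7357 in *Gde2*KO libraries, and its 95% interval was the narrowest, −0.09 to 0.23 around a log2 fold change of 0.07 (limma adjusted p = 0.783).

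*Egr4* had 1039, 1569 and 2352 normalized counts in 19-month WT and 1758, 1645 and 1707 in *Gde2*KO libraries (log2 fold change 0.12, 95% interval −0.43 to 0.67). *Nr4a2* had 1199, 1984 and 2199 in WT and 2115, 1631 and 2115 in *Gde2*KO libraries (0.16, −0.32 to 0.64). *Nr4a3* had 899, 1140 and 1821 in WT and 1526, 1301 and 1376 in *Gde2*KO libraries (0.18, −0.32 to 0.68). The limma adjusted p of these 3 genes was 0.821 to 0.895. Without WT replicate A the log2 fold change of *Egr1*, *Egr4*, *Nr4a1*, *Nr4a2* and *Nr4a3* turned to −0.16, −0.17, −0.33, −0.11 and −0.04. Without both libraries of low depth that of *Egr2* also turned, to −0.28, and *Nr4a1* reached −0.54, so that the sign of 6 of the 7 genes depended on the libraries of low depth. The median log2 fold change of the 7 was 0.12, beside −0.02 over all genes.

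The WT libraries of 19 months differed among themselves in a shared way. For 6 of the 7 genes replicate A was the lowest and replicate C the highest, *Egr3* being the exception, and 21 of 25 other immediate early genes had the same order, against 22.4% of the 16121 genes with a mean of at least 20 normalized counts. *Nr4a1* spanned 2.61-fold and *Egr2* 4.05-fold over these 3 libraries. The 5 blood markers, mostly haemoglobin genes, ran the other way, summing to 32714 in replicate A, 13877 in B and 6105 in C, and to 9230, 14777 and 9680 in *Gde2*KO replicates A, B and C. Replicate A of WT also had low depth. The part of blood content or depth in these levels was not tested.

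**Figure D3:**
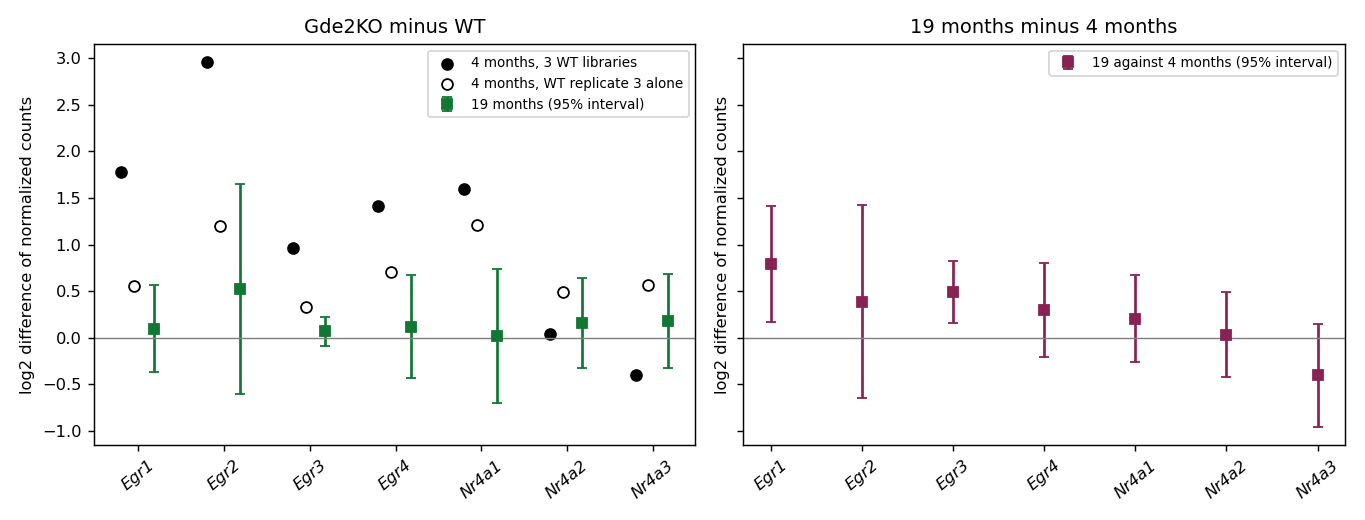
Log2 differences of normalized counts for the 7 genes. Left, *Gde2*KO minus WT at 4 months with all 3 WT libraries (filled, description only) and with WT replicate 3 alone (open), and at 19 months with 95% intervals, all 7 of which include 0. Right, 19 minus 4 months averaged over genotypes with 95% intervals, which lie above 0 for *Egr1* and *Egr3*.

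Averaged over genotypes, *Egr1* was higher at 19 than at 4 months, with a log2 difference of 0.79 (standard error 0.29, limma adjusted p = 0.0474), and was the only 1 of the 7 to pass. Of the 18731 genes tested, 4.52% passed as higher at 19 months and 9.49% as lower. *Egr3* had a log2 difference of 0.49 (95% interval 0.16 to 0.82, limma adjusted p = 0.0251), which is under the fold limit of 0.72 on the log2 scale. The others ranged from −0.40 for *Nr4a3* to 0.39 for *Egr2*, with limma adjusted p of 0.225 to 0.902, beside a median of −0.15 over all genes. This comparison uses the 4-month libraries too, by whose values the genes were selected, so the pass of *Egr1* is not independent of that selection. *Egr1* also did not pass without 4-month WT replicate 1, 4-month WT replicate 2 or 19-month WT replicate C (log2 difference 0.58, 0.70 and 0.67, limma adjusted p = 0.101 to 0.107). Without both 4-month WT replicates 1 and 2 the log2 difference of *Egr1* was 0.18 (limma adjusted p = 0.479), and that of *Egr3* was 0.17 (limma adjusted p = 0.147).

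In the *Gde2*KO libraries alone, which include the 4-month libraries on whose high values the genes were selected, the values are given with no test. The log2 difference between 19 and 4 months was −0.83 for *Egr2*, −0.58 for *Nr4a1* and −0.35 for *Egr4*, and for these 3 genes each 19-month library was below each 4-month library. This order was also found for 5648 of the 18910 genes compared, whose median log2 difference was −0.21. *Egr1* and *Egr3* differed by −0.05 and 0.04, and *Nr4a2* and *Nr4a3* by 0.10 and −0.11.

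Across the 12 libraries the members moved as a group of 5 and a pair. Among *Egr1*, *Egr2*, *Egr3*, *Egr4* and *Nr4a1* the Pearson r between log2 levels ran from 0.77 (*Egr3* with *Nr4a1*) to 0.96 (*Egr2* with *Egr4*). *Nr4a2* and *Nr4a3* had an r of 0.69 with each other, and *Nr4a3* had an r of −0.67 with *Egr3*. With the mean of each group removed, *Nr4a2* and *Nr4a3* had an r of 0.83, and *Egr4* and *Nr4a1* 0.86, while *Egr3* and *Nr4a1* fell to 0.44, below *Nr4a1* and *Nr4a2* at 0.49, so that the division was not kept. These are descriptions over libraries that share groups, depth and dissection. The range from lowest to highest library was 23.5-fold for *Egr2*, 7.85-fold for *Egr1* and 2.25-fold for *Nr4a2*.

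The genes whose levels were most like the mean of the 7 over the 12 libraries, of 16114 compared, were *Zfp36l2* (r = 0.97), *Fos* (0.96), *Trib1* (0.96), *Arc* (0.95), *Phlda1* (0.94), *Sik1* (0.94), *Erf* (0.94), *Prkaa2* (0.94), *Otud1* (0.93) and *Amotl2* (0.93). 4 of these 10 belong to the list of other immediate early genes, as do 25 of the 16114 compared. Others on that list ranked far lower, with *Jun* at 14018 (r = −0.36) and *Dusp5* at 12051 (r = −0.18). The mean of the 7 includes the 4-month values by which they were selected, so this likeness is not independent of that selection. With the group means removed the leading genes were *Fos* (r = 0.95), *Clcn5* (0.95), *Creb5* (0.95), *Vax1* (0.94), *Grb10* (0.93), *Kbtbd2* (0.93), *Sema6a* (0.93), *Amotl2* (0.92), *Nr3c1* (0.92) and *Sik1* (0.92). *Fos*, *Sik1* and *Amotl2* were in both sets. Without the 2 libraries of low depth 6 of the first 10 genes stayed in the set, and 0 of the second 10.

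Transcript shares differed between the *Nr4a* genes. For *Nr4a1*, ENSMUST00000023779.7, which starts at 101266846, held 55.2% ± 4.99 of the gene's TPM in 4-month WT, 69.7% ± 5.90 in 4-month *Gde2*KO, 52.3% ± 14.1 in 19-month WT and 56.5% ± 6.94 in 19-month *Gde2*KO libraries (SD, n = 3). In the libraries its share was 57.5%, 58.6% and 49.5% in 4-month WT and 74.5%, 63.1% and 71.5% in 4-month *Gde2*KO. ENSMUST00000228985.1, which starts upstream at 101254269, held 15.0% ± 2.01 and 8.16% ± 2.30 at 4 months and 19.8% ± 8.05 and 20.7% ± 3.53 at 19 months in WT and *Gde2*KO (SD, n = 3). ENSMUST00000230814.1, an annotated coding transcript that shares the first start site, held 17.9% to 23.9% in the 4 groups.

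For *Nr4a2*, ENSMUST00000028166.8 held 36.5% to 49.5% and the processed transcript ENSMUST00000128776.1 30.8% to 38% of TPM in the 4 groups. ENSMUST00000112629.7, which starts at the upstream region printed above, held 16% ± 2.19 and 24.2% ± 8.64 at 4 months and 7.48% ± 5.03 and 6.41% ± 6.14 at 19 months in WT and *Gde2*KO (SD, n = 3). *Nr4a3* was divided between ENSMUST00000030025.9 and ENSMUST00000153369.1, whose shares in 4-month *Gde2*KO libraries spread from 41.8% to 74.2% and from 19.3% to 55.9%. *Egr1* was carried by ENSMUST00000165033.1 (78.9% to 81.5% in the 4 groups) and ENSMUST00000064795.5, and *Egr2* mostly by ENSMUST00000048289.13 (80.5% to 94.6%), with ENSMUST00000145936.1 at 0% to 12%. *Egr3* was divided among ENSMUST00000225200.1 (43.9% to 51.7%), ENSMUST00000035908.2, ENSMUST00000223747.1 and ENSMUST00000223809.1. These shares rest on the length correction for short transcripts: by normalized counts ENSMUST00000023779.7 held 74.7% ± 1.12 and 86.7% ± 2.58 of *Nr4a1* at 4 months in WT and *Gde2*KO (SD, n = 3), ENSMUST00000230814.1 held 1.38% to 2.05%, and ENSMUST00000128776.1 held 0.665% to 0.911% of *Nr4a2*. *Egr4* has a single annotated transcript, ENSMUST00000095759.4.

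**Figure D4:**
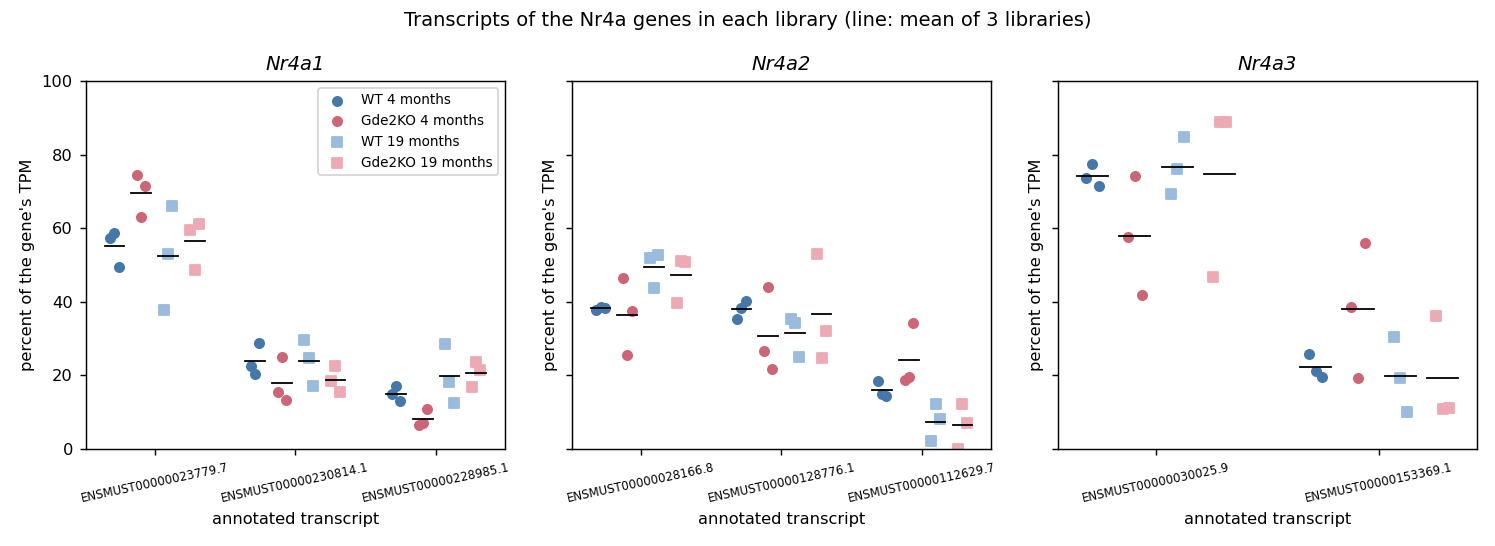
Percent of each *Nr4a* gene's TPM held by its main annotated transcripts, with 1 point per library and the mean of 3 libraries as a line. The share of ENSMUST00000023779.7 in *Nr4a1* is 63.1% to 74.5% in 4-month *Gde2*KO and 49.5% to 58.6% in 4-month WT libraries.

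Most of the other immediate early genes had higher levels in the 4-month *Gde2*KO libraries, and few passed. The list was drawn up with earlier results of these data known, so its 4-month counts and calls are not independent support. Of the 25 on the list, 4 passed as higher in *Gde2*KO and 0 as lower, where 0.126% of all genes passed, and 20 had every *Gde2*KO library above every WT library, where 11.1% of all genes did. The number that passed changed on leaving out 1 library. 0 of the 25 passed without WT replicate 1, WT replicate 2, *Gde2*KO replicate 1 or *Gde2*KO replicate 3. Without *Gde2*KO replicate 2, 1 passed, and without WT replicate 3, 18 did. Over all genes 24 passed with all 6 libraries and 5 to 1510 on leaving out 1. Against WT replicate 3 alone 0 passed, as with no limit on low values and with no trend, and with library weights 20 did. The median log2 fold change was 1.10, beside 0.11 over all genes. *Btg2*, an antiproliferative gene, had 371, 491 and 650 normalized counts in WT and 1712, 1390 and 2036 in *Gde2*KO libraries (log2 fold change 1.78, limma adjusted p = 0.0626). *Apold1*, *Ccn1* and the MAP kinase phosphatase gene *Dusp6* also passed, with log2 fold changes of 1.57, 1.10 and 1.06 (limma adjusted p = 0.0663 to 0.0765). *Fos*, *Dusp1* and *Arc* had larger log2 differences, 2.27, 1.92 and 1.82, and did not pass (limma adjusted p = 0.260 to 0.463). *Fos*, the AP-1 subunit, had 281, 497 and 1301 normalized counts in WT and 2926, 2229 and 3139 in *Gde2*KO libraries. *Fosl2*, *Jun* and *Dusp5* had log2 fold changes of −0.01, −0.18 and −0.10. Against WT replicate 3 alone, 23 of the 25 were higher in every *Gde2*KO library, with a median log2 difference of 0.58. The 5 endothelial markers, of interest because *Apold1* and *Ccn1* are expressed in vessels, summed to 4846 to 6020 normalized counts in 4-month WT and 6093 to 7395 in *Gde2*KO libraries, and their part in these results was not tested.

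At 19 months 0 of the 25 passed, with a median log2 fold change of −0.03, beside −0.02 over all genes. In limma 3 of them had an unadjusted p under 0.05, as had 1285 of the 18583 genes tested. Between ages 1 of 25 passed as higher at 19 months, *Fosb* (log2 difference 0.92, limma adjusted p = 0.0105), where 4.52% of all genes did, and not without 4-month WT replicate 1. Another 5 passed as lower, where 9.49% of all genes did, among them *Gadd45g* (−1.09, limma adjusted p = 0.000271), *Btg2* (−1.13), *Apold1* (−1.14) and *Ccn1* (−1.13, limma adjusted p = 0.00162 to 0.00264 for these 3). Their direction differs from that of *Egr1* and *Egr3*. In WT libraries alone the ages overlapped for *Btg2*, with 371, 491 and 650 normalized counts at 4 months and 280, 473 and 593 at 19 months. *Apold1* (271, 305 and 457, then 335, 507 and 236) and *Ccn1* (350, 313 and 367, then 130, 225 and 424) overlapped too. *Gadd45g* and *Jun* did not. For *Btg2*, *Apold1* and *Ccn1* the age difference includes the high 4-month *Gde2*KO libraries.

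**Figure D5:**
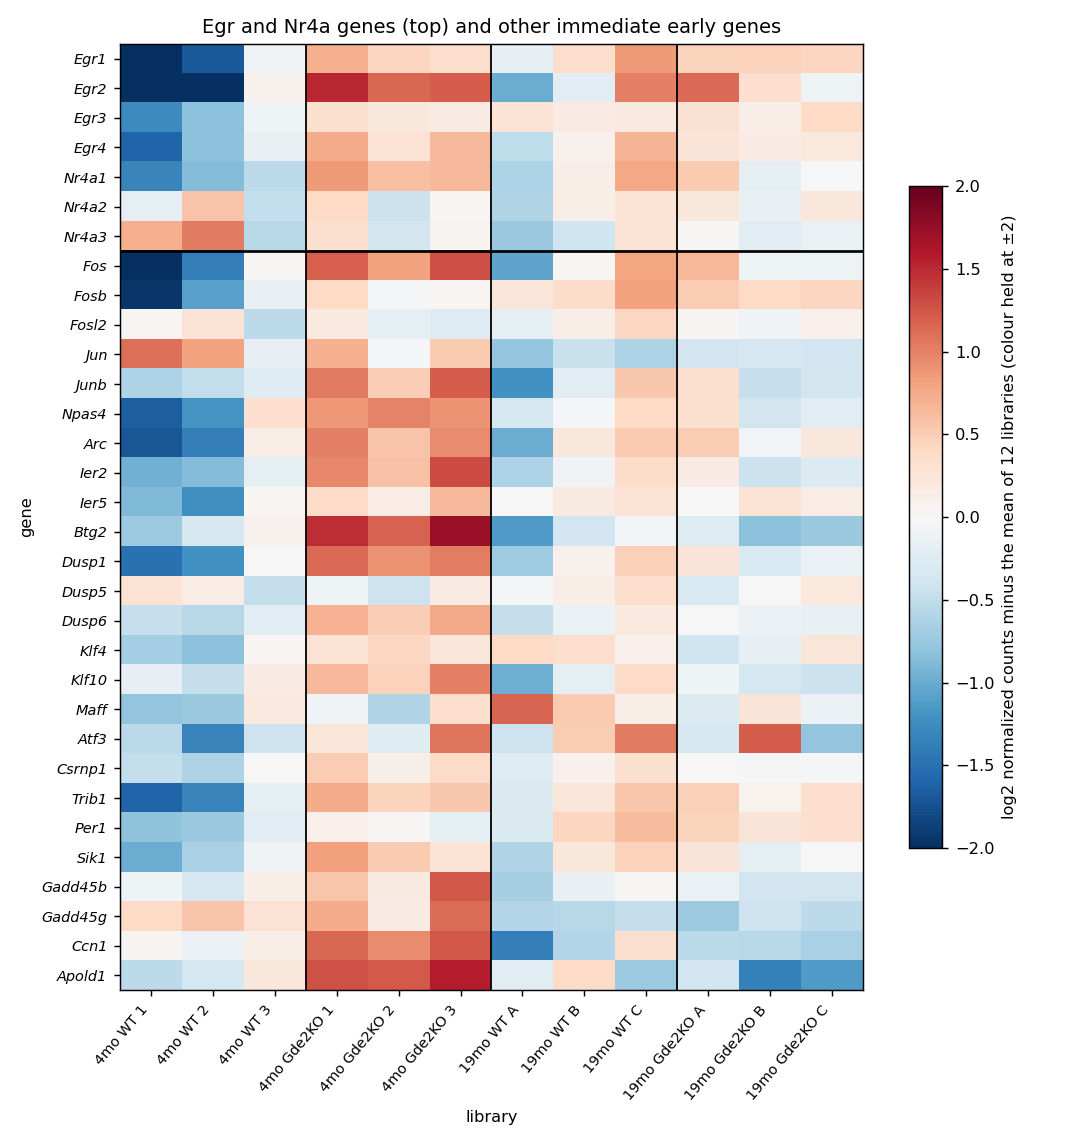
Log2 normalized counts of the 7 genes (above the line) and 25 other immediate early genes in each library, centred on the mean of 12 libraries, with the colour held at ±2. 4-month WT replicates 1 and 2 are the lowest of the 4-month libraries for 5 of the 7 and 21 of the 25 genes, and are the highest for *Nr4a3*. Of the 16121 genes with a mean of at least 20 normalized counts, they are the lowest for 24.2% and the highest for 12.7%.

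Of the 5 co-repressor and partner genes 0 passed in either genotype comparison (1 at each age had an unadjusted p under 0.05 in limma). Over all genes tested, 2025 of 19035 at 4 months and 1285 of 18583 at 19 months had such a p. *Nab2*, the inducible EGR co-repressor, had 1283, 1497 and 1772 normalized counts in 4-month WT and 2412, 2018 and 2604 in *Gde2*KO libraries, a log2 fold change of 0.63 (limma adjusted p = 0.463). *Nab1* and *Rxrb* had log2 fold changes of 0.21 and 0.29. *Rxrg*, a retinoid X receptor gene that is abundant in striatum, had 170, 189 and 1151 normalized counts in WT and 907, 1422 and 698 in *Gde2*KO libraries, and so was high in the same 4 libraries as the striatum marker sums. The part of striatal tissue in its level was not tested. It was lower at 19 months (log2 difference −2.34, limma adjusted p = 0.00386), as were 6 of the 9 striatum markers.

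Of the 8 reported EGR target genes and the 4 reported NR4A target genes, 0 passed in any of the 3 comparisons. In limma 3 and 0 of them had an unadjusted p under 0.05 at 4 months, 0 and 0 at 19 months, and 4 and 1 between ages. Over all genes tested this held for 2025 of 19035 at 4 months, 1285 of 18583 at 19 months and 8991 of 18731 between ages. The median log2 fold change at 4 months was 0.31 for the EGR targets, among which *Arc* also counts as an immediate early gene, and −0.16 for the NR4A targets *Bdnf*, *Ret*, *Th* and *Slc18a2*, beside 0.11 over all genes. Of the 23 upstream regulators, such as *Srf* and *Creb1*, 0 passed in any comparison (4, 4 and 12 had an unadjusted p under 0.05 in limma at 4 months, at 19 months and between ages), and the median log2 fold change at 4 months was 0.04. *Mef2c*, a factor of excitatory cortical neurons named here after its values were seen, had 4143, 5496 and 18131 normalized counts in 4-month WT and 23075, 18624 and 26048 in *Gde2*KO libraries (log2 fold change 1.59, limma adjusted p = 0.463). These groups did not overlap, and as for *Egr1* WT replicates 1 and 2 were far below the other libraries.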

How the data were processed

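Gene levels in 12 mouse cortex libraries (4 groups of 3) were analysed. Per the labels and the study's methods, RNA was extracted with a Qiagen kit, libraries were made with the NEBNext Ultra II kit after oligo(dT) selection, and transcripts were quantified by Kallisto on GRCm38 and normalized in Sleuth; the submitters' processing notes also name bcl2fastq 2.17, Trimmomatic 0.36 and STAR 2.5.2b. The authors deposited signal values for 118489 transcripts, estimated counts divided by a library size factor, and a second table of signal values with TPM divided in the same way. The value of 1 read was 0.597 to 0.721 normalized counts at 4 months and 0.702 to 8.29 at 19 months, and 46.7% to 62.9% of genes had whole reads within 0.01, so these values are not counts. Transcripts without a gene (1673) held 0.541% to 0.605% of a library and were left out of genes.

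Transcripts were summed to 36047 genes. limma 3.58.1 (R 4.3.3) was run with an intensity trend on log2(normalized count + 0.5), so fold changes of low genes are understated, for genes with 5 or more normalized counts in at least 47% of the libraries. A gene passed, by the study's own limits, when its p adjusted after Benjamini and Hochberg was under 0.1 and its natural log fold change exceeded 0.5 in size (0.72 on the log2 scale). Intervals are 95% and p-values two-sided. Comparisons were genotype at each age and age averaged over genotypes. The fits were also run on simulated data with known changes. Those data held no libraries of differing tissue, so that run does not bear on such differences here. The labels number the libraries of a group without naming animals, so p-values measure the spread between libraries. Strand is not given in the sources used here, so reads of antisense genes cannot be told apart. No deposited column was left unused for want of a sample or group. The 19-month columns carry no replicate number and are called A, B and C in column order. Positions are from GENCODE M21 (GRCm38), which holds 116728 of the transcripts.

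The members and lists were chosen with earlier results of these data known. Named genes were the 7 members, *Gdpd5*, up to 4 genes of a list that passed in a fit, the 4 with the largest 4-month difference among other immediate early genes and among co-repressors and partners, the 10 most alike, and transcripts with a mean share of at least 10% in a group. Of the marker and Y-linked lists only *Fibcd1*, at 19 months, was named by this rule. Marker and Y-linked genes that passed between ages were not named. *Rbfox3* and the other neuron markers, *Fosb*, *Fosl2*, *Jun*, *Dusp5*, *Trib1*, *Arc*, *Srf*, *Creb1*, *Mef2c* and the target genes were also named, with their values seen. Alternatives were a pseudocount of 5, a mean of at least 20, no limit on low values, median-ratio scaling, the TPM table (0.1 or more), no trend, library weights, a replicate block, and leaving out libraries. Shares of normalized counts were tried for transcripts.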

Additional observations from a re-analysis of the deposited data

How the results depend on the processing

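Leaving out 1 library gave 5 to 1510 genes passing at 4 months (24 with all 6), the lowest without *Gde2*KO replicate 3 and the highest without WT replicate 3, 9 to 45 at 19 months (18 with all), and 0 to 2 members between ages (1 with all). At 4 months 12 genes passed with no limit on low values, 12 without the trend, 2934 with library weights and 14 without WT replicates 1 and 2. Median-ratio scaling moved the 4-month median of all genes from 0.11 to 0.0025 (log2). At 19 months 11 passed by TPM, 7 without the trend, 77 with library weights and 34 without the 2 libraries of low depth. Between ages 1720 genes and 0 members passed without 4-month WT replicates 1 and 2, and 2 members with library weights, whose fitting stopped before convergence for some comparisons. 4-month replicate numbers did not pair libraries (correlations of deviations 0.06, 0.01 and −0.05), and the fit with a replicate block passed 21 genes; no paired analysis was possible at 19 months because the columns carry no numbers.

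The cause of these changes was not tested. At 19 months 0 members passed under each of the 14 alternatives. Ranges on leaving out 1 library that crossed 0 were, for log2 differences at 19 months, −0.16 to 0.35 (*Egr1*), −0.17 to 0.42 (*Egr4*), −0.33 to 0.36 (*Nr4a1*), −0.11 to 0.33 (*Nr4a2*) and −0.044 to 0.46 (*Nr4a3*), and between ages −0.077 to 0.19 (*Nr4a2*). Without both libraries of low depth the 19-month values were −0.15 (*Egr1*), −0.28 (*Egr2*), −0.20 (*Egr4*), −0.54 (*Nr4a1*), −0.17 (*Nr4a2*) and −0.11 (*Nr4a3*). *Nr4a1* was also −0.062 by TPM and −0.17 with library weights. Between ages, *Nr4a2* was −0.33 and *Nr4a3* −0.84 with library weights, both under an adjusted p of 0.05 in limma, and *Egr2* was 0.83 without 4-month WT replicate 3 (limma adjusted p = 0.0718). Without 4-month WT replicates 1 and 2, *Egr2* was −0.49, *Egr4* −0.059 and *Nr4a3* 0.079. In *Gde2*KO libraries alone, *Egr1* was −0.050, *Egr2* −0.83, *Egr4* −0.35 and *Nr4a1* −0.58. These last 2 alternatives were chosen after seeing the data. At 4 months 99 of 105 member values moved by less than 1 residual SD, the other 6 being those against WT replicate 3 alone. That SD includes the spread among the WT libraries and was wide for *Egr2* (1.13) and *Egr1* (0.78), so this count does not show stability. On leaving out 1 library the 4-month log2 difference ran from 2.29 to 3.84 for *Egr2* and from 1.37 to 2.40 for *Egr1*. Depth limited *Egr2* most, at 15 estimated reads in 19-month WT replicate A.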
